A study of Mus musculus with 10 samples.

Results

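The superoxide dismutase genes Sod1, Sod2 and Sod3 and the peroxide scavenger genes Cat, Gpx1, Gpx3, Gpx4, Prdx1, Prdx3 and Prdx6 were followed in RNA sequencing counts from mouse retina. They were taken by symbol from a table of 36115 genes, and all 10 were found there. The groups were 5 libraries labelled as an interleukin-6 (IL-6) knockout, strain B6.129S2-Il6tm1Kopf/J, named K1 to K5, and 5 wild-type libraries, named W1 to W5. Both groups are labelled with a C57BL/6 background, an age of 3 months and no treatment, and every library is from retina. Il6tm1Kopf disrupts the Il6 gene in the germline, so that every cell of the animal carries it. No litter, sex or separate-animal statement is in the labels, so the p-values stand for the variation among libraries alone, which may be partly technical, and the genotype cannot be told apart from other differences in genetic background. The label of K5 carries a second index sequence that differs from the one the other 9 libraries share, and the labels do not say whether K5 was handled apart. Library totals ran from 30433373 to 38857374 reads assigned to genes.

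Superoxide, formed mainly by electron leak from the respiratory chain and by NADPH oxidases, is turned into hydrogen peroxide by the superoxide dismutases. Catalase, the glutathione peroxidases and the peroxiredoxins then reduce hydrogen peroxide or lipid peroxides, each in its own compartment and with its own electron donor. Photoreceptors respire heavily and carry outer segments rich in polyunsaturated lipids, and this scavenging system is studied in the retina for that reason.

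The label check came first. Il6 (chromosome 5, 30013114 to 30019981, GRCm38) had 3, 3, 5, 7 and 4 counts in K1 to K5, against 0, 0, 1, 1 and 1 counts in W1 to W5. Its level was therefore higher in the libraries labelled knockout, by 0.15 on the log2(CPM + 1) scale, where CPM is the depth-scaled count (exact two-sided permutation test, p = 0.00794, the smallest that 252 splits allow). Reads outside the interrupted part of a gene check nothing, and gene counts do not separate the parts of Il6. Whether the labels of the 2 groups were exchanged was not tested, so every direction here is that of the libraries as labelled. The retina label was borne out by its rods, whose 10 markers summed to 59491 to 83758 CPM in the libraries labelled knockout and 64802 to 82783 CPM in wild type. Lens markers summed to at most 1.86 CPM in the libraries labelled knockout and 1.89 CPM in wild type.

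Among the 10 genes, Sod3, which encodes the secreted extracellular dismutase, rose in the libraries labelled knockout, and the other 9 did not pass the test. Sod3 stood about 2-fold higher, at 5.99 ± 0.867 CPM in the libraries labelled knockout and 2.70 ± 0.773 CPM in wild type (SD, n = 5 each). The intracellular dismutase genes Sod1 and Sod2 differed by less than the spread between libraries, as did Cat, Gpx1, Prdx1, Prdx3 and Prdx6. A gene was called at an edgeR quasi-likelihood adjusted p under 0.05. Of all 18965 tested genes, 2.03% were called in either direction and 0.859% were called higher, against 1 of the 10 genes here, and all 10 had passed the filter on low counts. The median log2 fold change of the 10 was 0.03 and that of all tested genes was 0.0018, with 7 of the 10 above 0, where 50.4% of all tested genes were.

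**Figure D1:**
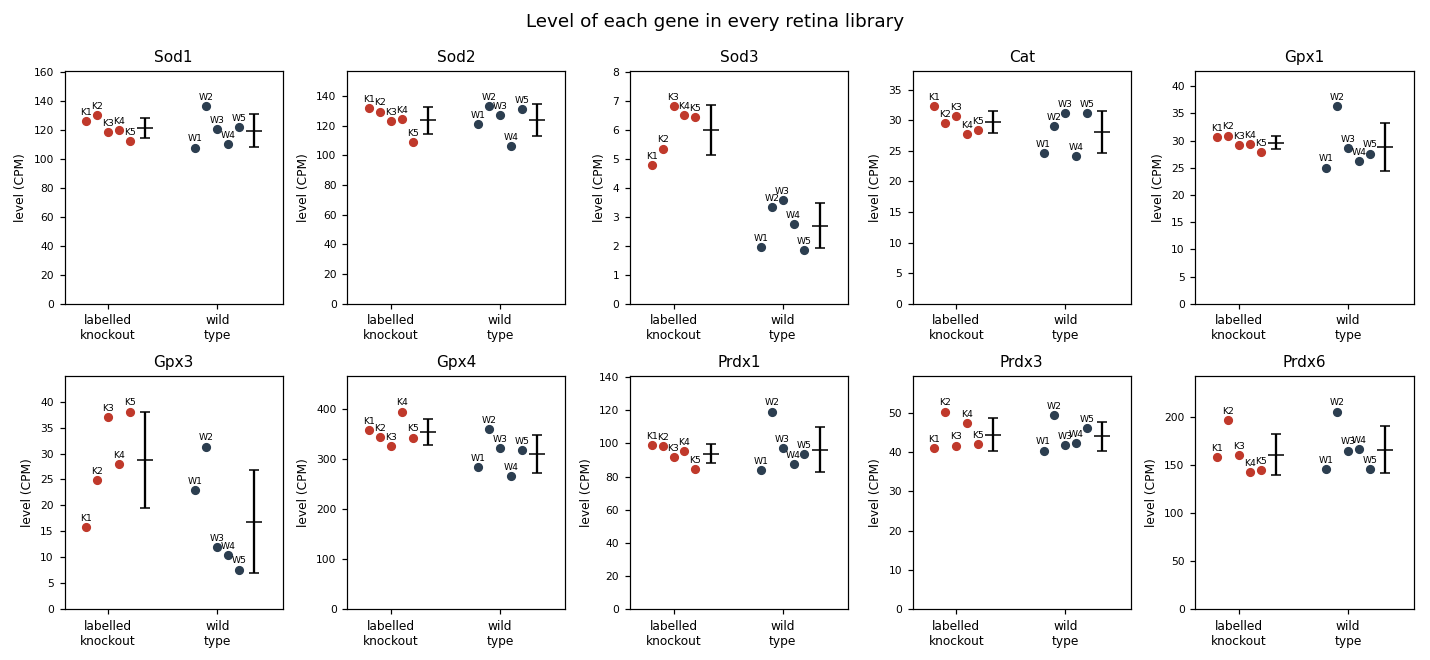
Level of each of the 10 genes in CPM (vertical axes, from 0) in the 5 libraries labelled knockout (red) and the 5 wild-type libraries (dark), with the mean and SD beside each group. Sod3 is the one panel in which the groups do not overlap, and W2 is the highest wild-type library in 8 of the 10 panels.

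Sod3 binds heparan sulfate at cell surfaces and in the matrix and removes superoxide outside the cell, with vessel walls as its best known site. The gene (ENSMUSG00000072941.5, chromosome 5, 52363791 to 52371418, plus strand) had 176, 190, 245, 217 and 220 counts in K1 to K5, against 62, 108, 135, 110 and 63 counts in W1 to W5. These correspond to 4.79, 5.36, 6.82, 6.51 and 6.46 CPM in K1 to K5, against 1.97, 3.34, 3.57, 2.75 and 1.87 CPM in W1 to W5. All 5 libraries labelled knockout lay above all 5 of wild type, an arrangement found in 1.76% of all tested genes. The log2 fold change was 1.146 ± 0.193 (SE), a 2.21-fold difference with a 95% interval of 1.67 to 2.94, and the edgeR adjusted p was 0.00426. By p-value Sod3 was number 112 of the 18965 tested genes, and by size it was number 46 of the 163 genes called higher. In the authors' deposited table its log2 fold change of 0.844 was the 9th highest of all genes, with an adjusted p of 1.49e-07, and it was not marked significant there. DESeq2 as run here gave a log2 fold change of 1.147, so the deposited rank and the rank by size above rest on unlike measures. Each of the 16 alternative settings called it as well, with edgeR, DESeq2 or limma-voom adjusted p from 2.78e-07 to 0.0226. In bulk tissue a different number of cells of a type and a different amount of RNA per cell cannot be told apart, and this holds for every level given.

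Markers of the cells in which Sod3 is best known were looked at in the same libraries. The 10 endothelial and mural cell markers summed to 351 to 434 CPM in the libraries labelled knockout and 385 to 512 CPM in wild type, and edgeR called none of them (3 at an unadjusted p under 0.05, and DESeq2 called 1 and limma-voom 0). The smooth muscle myosin gene Myh11 stood at 9.49 ± 2.87 CPM in the libraries labelled knockout and 9.97 ± 2.28 CPM in wild type, and the smooth muscle actin gene Acta2 at 10.98 ± 4.14 and 12.4 ± 3.14 CPM in the same order, with log2 fold changes of -0.07 and -0.17. The endothelial adhesion gene Pecam1 stood at 14.9 ± 0.980 CPM in the libraries labelled knockout and 12.1 ± 1.61 CPM in wild type, a log2 difference of 0.29 (edgeR adjusted p = 0.188). Cdh5 and Tagln of the same list had log2 fold changes of 0.06 and -0.36 (edgeR adjusted p = 0.911 and 0.587). None of these genes passed the test, and they were picked after their values were seen. Among them Pecam1 alone had an edgeR unadjusted p under 0.05 (0.0114), and the other markers of the list at that level are not named. In the whole list 6 of the 10 were above 0, with a median log2 fold change of 0.02. Of the 8 microglia markers, Fcrls rose by 2.79 on the log2 scale (edgeR adjusted p = 0.0177) and the other 7 were not called. Fcrls was low, with 27, 17, 28, 24 and 13 counts in K1 to K5, against 0, 7, 2, 0 and 6 counts in W1 to W5. In the microglia list 6 of the 8 were above 0, with a median log2 fold change of 0.23 and 2 at an unadjusted p under 0.05. That list summed to 40.2 to 45.8 CPM in the libraries labelled knockout and 32.0 to 53.5 CPM in wild type. The part of any of these cells in the Sod3 difference was not tested. In all 9 marker lists examined the summed levels of the 2 groups overlapped.

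Sod3 lies on the same chromosome as Il6, 22.3 Mb away, and the strain name records an allele brought onto C57BL/6 from another strain. Its neighbours were therefore examined, a choice made after the value of Sod3 was known. Within 1 Mb on either side, 16 other genes were tested and edgeR called none of them (1 at an unadjusted p under 0.05, and DESeq2 and limma-voom called 0), with a lowest adjusted p of 0.359. The adjacent gene Ccdc149, which starts 0.0109 Mb downstream of the start of Sod3, had a log2 fold change of -0.04 ± 0.09 (SE), and Dhx15, an RNA helicase gene on the other side, one of -0.08 ± 0.07. Over the 12 neighbours with a mean log2 CPM above 2 the log2 fold changes ran from -0.16 to 0.12. The neighbours below that level were Gm42614 at 0.68 (edgeR unadjusted p = 0.049), Gm43180 at 0.59, Pi4k2b at -0.31 and 8030423F21Rik at 0.02. None of the 254 tested genes within 10 Mb of Il6 was called, and 2 of 83 between 10 and 20 Mb and 2 of 73 between 20 and 30 Mb were, Sod3 among the last. These shares of 0%, 2.41% and 2.74% stand beside 2.03% over all tested genes.

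**Figure D2:**
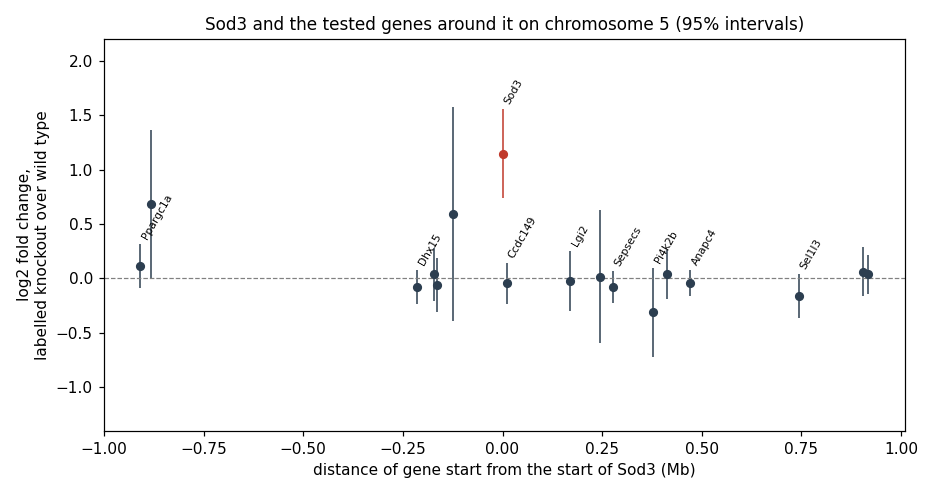
Log2 fold change of libraries labelled knockout over wild type (vertical axis) for Sod3 (red) and the 16 other tested genes within 1 Mb (dark), by the distance of their start from the start of Sod3 in Mb, with 95% intervals. Sod3 stands at 1.146, and the 12 neighbours with a mean log2 CPM above 2 lie between -0.16 and 0.12. The neighbours below that level lie between -0.31 and 0.68.

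The other 2 dismutase genes did not pass the test. Sod1 encodes the copper and zinc enzyme of the cytosol and the space between the mitochondrial membranes (ENSMUSG00000022982.9, chromosome 16, 90220742 to 90226322). It stood at 126, 130, 118, 120 and 112 CPM in K1 to K5, against 108, 136, 121, 110 and 122 CPM in W1 to W5. The ranges overlapped almost completely, and the log2 fold change was 0.02 ± 0.07 (SE) with an edgeR adjusted p of 0.937. The 95% interval of the log2 fold change ran from -0.13 to 0.18, or -8.93% to 13.3% in level. Sod2 encodes the manganese enzyme of the mitochondrial matrix (ENSMUSG00000006818.4, chromosome 17, 13007839 to 13018119), a gene that inflammatory cytokines induce in many cells. It stood at 132, 130, 123, 124 and 109 CPM in K1 to K5, against 121, 133, 127, 106 and 131 CPM in W1 to W5. Its log2 fold change was -0.0017 ± 0.08 (SE), with a 95% interval of -0.16 to 0.16 and an edgeR adjusted p of 0.995.

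Catalase, encoded by Cat (ENSMUSG00000027187.10, chromosome 2, 103453849 to 103485160), breaks hydrogen peroxide down to water and oxygen in peroxisomes. It stood at 32.3, 29.5, 30.6, 27.7 and 28.4 CPM in K1 to K5, against 24.6, 29.1, 31.1, 24.1 and 31.1 CPM in W1 to W5. W1 and W4 were the low libraries and the groups overlapped. The log2 fold change was 0.08 ± 0.09 (SE), with a 95% interval of -0.10 to 0.27 and an edgeR adjusted p of 0.737.

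The glutathione peroxidases Gpx1, Gpx3 and Gpx4 are selenoproteins that spend glutathione to reduce peroxides. None of the 3 passed the test, although 2 of the 3 had an unadjusted p under 0.05. Over all tested genes 13.8% reached that unadjusted level, against 3 of the 10 genes with Sod3 included. Gpx4, the enzyme that reduces lipid peroxides within membranes and so holds back ferroptosis (ENSMUSG00000075706.10, chromosome 10, 80047166 to 80056439), stood at 359, 345, 326, 396 and 344 CPM in K1 to K5, against 284, 361, 323, 266 and 319 CPM in W1 to W5. K4 was the only library above all of wild type, and W1 and W4 were the 2 lowest libraries of all. The means were 354 ± 26.0 CPM in the libraries labelled knockout and 311 ± 37.1 CPM in wild type (SD, n = 5 each). The log2 fold change was 0.19 ± 0.09 (SE), with a 95% interval of 0.0028 to 0.37 before any adjustment, and the edgeR adjusted p was 0.354. Gpx1, the abundant cytosolic enzyme in most tissues (ENSMUSG00000063856.7, chromosome 9, 108338903 to 108340343), stood at 30.6, 30.9, 29.3, 29.4 and 27.9 CPM in K1 to K5, against 25.1, 36.3, 28.7, 26.3 and 27.6 CPM in W1 to W5. All 5 libraries labelled knockout fell inside the wild-type range, and the log2 fold change was 0.04 ± 0.09 (SE) with an edgeR adjusted p of 0.898.

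Gpx3, the secreted glutathione peroxidase best known from blood plasma, varied most among libraries. The gene (ENSMUSG00000018339.11, chromosome 11, 54902453 to 54910377) stood at 15.7, 24.8, 37.1, 27.9 and 38.1 CPM in K1 to K5, against 23.0, 31.3, 11.9, 10.4 and 7.61 CPM in W1 to W5. K3 and K5 lay above every wild-type library, K1 lay below W1 and W2, and the groups overlapped. The SD was 32.2% of the mean in the libraries labelled knockout and 59.3% in wild type, against 4.11% to 13.5% and 8.51% to 15.3% in the same order for the 8 genes other than Sod3 and Gpx3. The log2 fold change was 0.77 ± 0.32 (SE), with a 95% interval of 0.08 to 1.46 and an edgeR adjusted p of 0.300. Without W2 it was 1.12 with an adjusted p of 0.0429, which passes the test. The other 15 alternative settings did not call it, and the lowest value was 0.47 with an adjusted p of 0.687 without W5 and K5. It was 0.59 without W5 alone and 0.64 without W4.

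The spread of Gpx3 was set beside markers of tissue that adjoins the retina. Markers of the retinal pigment epithelium, the pigmented layer behind the photoreceptors, summed over 10 genes to 253, 293, 369, 221 and 195 CPM in K1 to K5, against 344, 466, 94.1, 155 and 38.8 CPM in W1 to W5. In wild type the 2 libraries with the most pigment epithelium RNA, W2 and W1, were also the 2 highest in Gpx3, and W5 was lowest in both. In the libraries labelled knockout the order differed, since K5 had the highest Gpx3 and the lowest pigment epithelium sum. Optc, an extracellular matrix gene of the ciliary body, stood at 3.19, 2.96, 8.68, 5.97 and 6.99 CPM in K1 to K5, against 2.42, 3.65, 2.38, 2.42 and 1.30 CPM in W1 to W5. K3, K5 and K4 were the 3 highest libraries labelled knockout but for order in both Optc and Gpx3. The edgeR test gave Optc a log2 fold change of 1.19 ± 0.30 (SE) with an adjusted p of 0.0585. Optc was singled out after its values were seen, and the list of 7 cornea and ciliary body markers was mixed in direction. The median log2 fold change of the list was -0.64, and 3 of the 7 were above 0. Of the 7, edgeR called 0 (2 at an unadjusted p under 0.05), DESeq2 called 1 and limma-voom 0. The list summed to 45.9, 64.9, 68.6, 48.0 and 82.9 CPM in K1 to K5, against 82.4, 49.0, 53.5, 83.7 and 40.6 CPM in W1 to W5. W4 and W1 were highest in wild type, where W2 and W1 led in Gpx3. The 7 erythroid markers summed to 24.0 to 55.4 CPM in the libraries labelled knockout and 16.0 to 60.1 CPM in wild type, highest in K5 and W2. None of the 10 pigment epithelium genes was called by edgeR (0 at an unadjusted p under 0.05, and 0 by DESeq2 and limma-voom), and none was at 0 in either group. The part of these tissues in the level of Gpx3 was not tested.

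**Figure D3:**
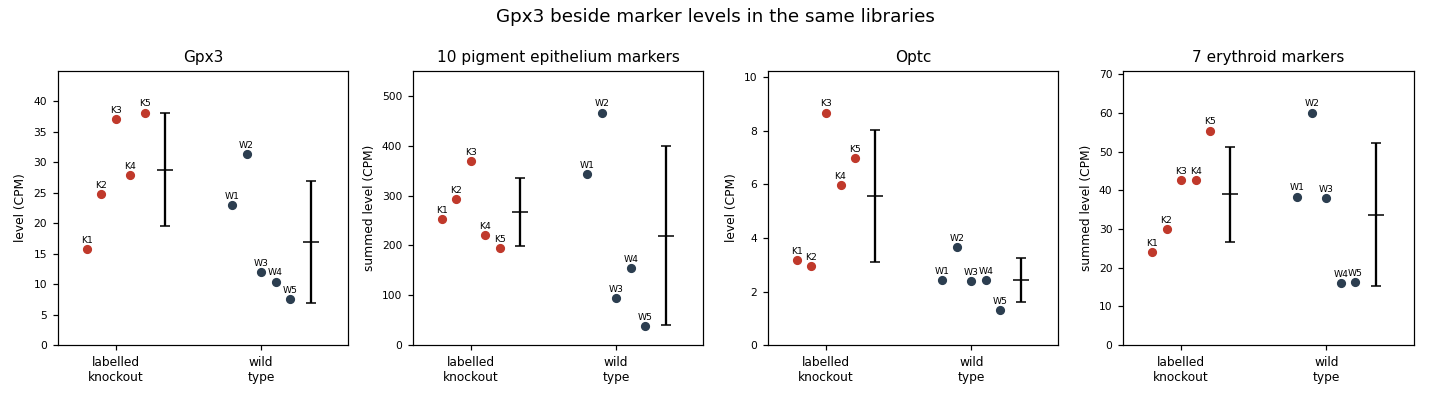
Level of Gpx3, summed level of 10 pigment epithelium markers, level of Optc and summed level of 7 erythroid markers, all in CPM from 0, in each library labelled knockout (red) and wild-type library (dark), with mean and SD beside each group. W2 is the highest wild-type library in all 4 panels, and K3 and K5 lead the libraries labelled knockout in Gpx3 and Optc, while K5 is the lowest of them in the pigment epithelium sum. Optc was singled out after its values were seen from 7 cornea and ciliary body markers of mixed direction, whose sum is highest in W4 among wild type.

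The peroxiredoxins, which use a reactive cysteine that thioredoxin or glutathione then restores, did not pass the test, and their groups overlapped. Prdx6 encodes the one-cysteine member that also acts on phospholipid peroxides (ENSMUSG00000026701.15, chromosome 1, 161240112 to 161251219). It stood at 158, 197, 160, 143 and 145 CPM in K1 to K5, against 146, 205, 165, 166 and 146 CPM in W1 to W5. K2 and W2 stood above the rest of their groups, and the log2 fold change was -0.04 ± 0.10 (SE) with an edgeR adjusted p of 0.909. Prdx1 encodes a cytosolic enzyme and is a target of the oxidative stress factor NRF2 (ENSMUSG00000028691.12, chromosome 4, 116685544 to 116700822). It stood at 98.8, 98.3, 92.0, 95.5 and 84.5 CPM in K1 to K5, against 83.7, 119, 97.3, 87.7 and 93.4 CPM in W1 to W5. Its log2 fold change was -0.04 ± 0.09 (SE) with an edgeR adjusted p of 0.905. Prdx3, the enzyme of the mitochondrial matrix (ENSMUSG00000024997.7, chromosome 19, 60864051 to 60874556), stood at 41.0, 50.3, 41.6, 47.4 and 42.0 CPM in K1 to K5, against 40.4, 49.5, 41.8, 42.2 and 46.1 CPM in W1 to W5. The log2 fold change was 0.02 ± 0.08 (SE) with an edgeR adjusted p of 0.962. For the 7 genes other than Sod3, Gpx3 and Gpx4, the 95% intervals of the difference in level reached at most from -16.9% to 20.6%, with edgeR adjusted p from 0.737 to 0.995. Differences within those bounds could not be told from 0 with 5 libraries a group.

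**Figure D4:**
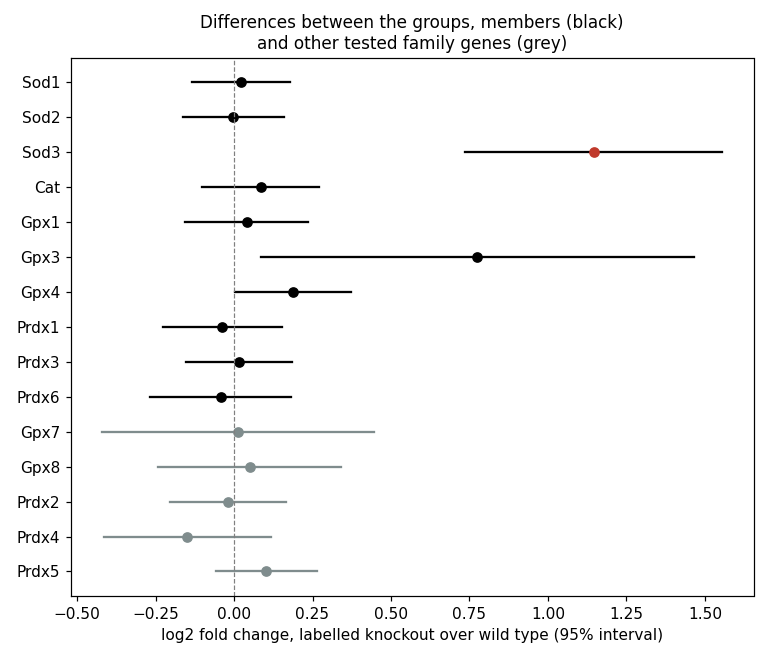
Log2 fold change of libraries labelled knockout over wild type (horizontal axis) with its 95% interval for the 10 genes (black, Sod3 with a red point) and for 5 other tested genes of the peroxidase and peroxiredoxin families (grey). The intervals of Sod3, Gpx3 and Gpx4 lie above 0 before adjustment for multiple testing, and Sod3 alone passed the adjusted test.

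Within wild type, W2 was the highest library in 8 of the 10 genes, all but Sod3 and Cat, while it was the highest wild-type library in 27.2% of all tested genes. W1 or W4 was the lowest in 7 of the 10, and the share of all tested genes with that arrangement was not computed. W2 also had the highest summed level in wild type for 7 of the 9 marker lists, those of rods, Muller glia, microglia, endothelial and mural cells, pigment epithelium, lens and erythroid cells, and not for those of cones or of cornea and ciliary body. For Muller glia, the radial support cells of the retina, it had 8694 CPM, against 6260 to 6922 CPM in the other wild-type libraries and 6434 to 7724 CPM in the libraries labelled knockout. The part of any of these cells in the shared pattern was not tested.

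To compare levels between genes, CPM was divided by the length of all annotated exons in kb. Gpx4 was the highest of the 10 on this scale, at 205 ± 15.1 CPM per kb in the libraries labelled knockout and 180 ± 21.5 CPM per kb in wild type (SD, n = 5 each), and lay apart from the next gene in both groups. Sod3 was the lowest, at 1.602 ± 0.232 CPM per kb in the libraries labelled knockout and 0.722 ± 0.207 CPM per kb in wild type, below every other gene in every library. Between them came Prdx6, Prdx1, Sod1 and Prdx3, each overlapping the next, then Gpx1, and then Sod2, Cat and Gpx3. Gpx3 stood above Sod2 and Cat in the libraries labelled knockout and below them in wild type, with ranges that overlapped in each group. Among the 3 dismutases Sod3 made up 3.62% ± 0.670 of the summed level per kb in the libraries labelled knockout and 1.67% ± 0.429 in wild type. With the principal transcript's length in place of all exons, a setting chosen after the data were seen, Sod1 moved to second place at 189 ± 10.9 CPM per kb in the libraries labelled knockout and 186 ± 17.6 CPM per kb in wild type. The share of Sod3 was then 0.762% in the libraries labelled knockout and 0.346% in wild type, and Gpx4 and Sod3 kept the first and last places.

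No other gene of the table overlaps any of the 10, but several have near-identical copies to which reads could be assigned. AC153368.1, a transcript 99.7% identical to Gpx4 over 733 bases, had 2026 counts in the libraries labelled knockout and 1550 in wild type, 3.07% of the Gpx4 counts. Its log2 fold change was 0.38 ± 0.12 (SE) with an edgeR adjusted p of 0.149. The Prdx1 copies Gm21399, Gm15974 and Gm7204 and the Sod1 copy Gm8566 each held at most 0.831% of the counts of their parent. Prdx6b, a copy of Prdx6, had 20 counts in the libraries labelled knockout and 29 in wild type, and the pseudogene Prdx6-ps2 had at most 4 counts in any library. Copies were sought at 90% identity or more over at least 400 aligned bases, and none was found for Sod2, Sod3, Cat, Gpx1, Gpx3 or Prdx3.

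Promoter sequence from RefSeq (build GRCm38.p6, 250 bases before to 50 after the start) was at hand for 8 of the 10 genes and was searched on both strands for TGACNNNGC, the core of the antioxidant response element that NRF2 binds, and for TTCNNNGAA, the element that STAT factors bind downstream of IL-6. The first motif was found in the windows of Prdx1 and Sod1 and stands in 12.4% of all 32851 promoter windows. The second was found in the window of Sod2 and stands in 8.30% of them. The 3 windows that hold a match are shown 5′ to 3′ on the plus strand, which is the strand of each gene, with the matched bases in capitals, because they hold the matches named here.
Prdx1 (chr4:116685349-116685648): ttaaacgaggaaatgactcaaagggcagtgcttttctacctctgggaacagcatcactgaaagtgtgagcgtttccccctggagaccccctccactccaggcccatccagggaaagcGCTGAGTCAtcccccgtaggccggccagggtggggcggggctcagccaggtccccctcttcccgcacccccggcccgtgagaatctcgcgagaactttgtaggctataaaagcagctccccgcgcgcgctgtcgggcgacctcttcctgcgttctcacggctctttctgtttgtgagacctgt
Sod1 (chr16:90220512-90220811): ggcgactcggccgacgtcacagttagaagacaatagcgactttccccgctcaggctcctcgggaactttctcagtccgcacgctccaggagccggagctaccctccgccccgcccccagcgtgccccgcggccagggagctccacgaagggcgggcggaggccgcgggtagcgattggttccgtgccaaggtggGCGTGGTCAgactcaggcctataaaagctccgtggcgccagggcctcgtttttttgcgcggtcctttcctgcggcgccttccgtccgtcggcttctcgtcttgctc
Sod2 (chr17:13007589-13007888): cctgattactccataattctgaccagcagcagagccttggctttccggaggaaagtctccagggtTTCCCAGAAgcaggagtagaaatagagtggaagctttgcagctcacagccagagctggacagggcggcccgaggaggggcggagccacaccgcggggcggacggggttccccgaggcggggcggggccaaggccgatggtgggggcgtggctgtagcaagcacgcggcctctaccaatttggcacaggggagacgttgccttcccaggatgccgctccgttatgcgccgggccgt
In Prdx1 the match runs from base -133 to -125 and in Sod1 from base -56 to -48, counted with the start as base 0, both on the opposite strand, as TGACTCAGC and TGACCACGC. In Sod2 it runs from -185 to -177 and reads TTCCCAGAA on the strand of the gene. Beside these letters, Sod2 had a log2 fold change of -0.0017, Sod1 one of 0.02 and Prdx1 one of -0.04. A match is a string of letters in this window and not a measured site.

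The rest of the peroxide-reducing families did not pass the test either. Of 9 other peroxiredoxin and glutathione peroxidase genes, 5 passed the filter on low counts, and edgeR called 0 of them (0 at an unadjusted p under 0.05, and 0 by DESeq2 and limma-voom), with a median log2 fold change of 0.01. Prdx2, the abundant cytosolic partner of Prdx1, stood at 179 ± 7.70 CPM in the libraries labelled knockout and 181 ± 25.5 CPM in wild type, and Prdx5, found in mitochondria, peroxisomes and cytosol, at 111 ± 6.26 and 104 ± 10.8 CPM in the same order (log2 fold change 0.10, edgeR adjusted p = 0.604). Prdx4, the enzyme of the endoplasmic reticulum, stood at 10.05 ± 0.413 CPM in the libraries labelled knockout and 11.1 ± 2.31 CPM in wild type (log2 fold change -0.15, edgeR adjusted p = 0.660). Gpx6, an olfactory enzyme too low for the test, had 0, 0, 4, 1 and 0 counts in K1 to K5, against 3, 5, 8, 9 and 2 counts in W1 to W5, while Gpx5 had 3 counts in all, each in K4.

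Genes that reload the peroxiredoxins did not pass the test. In the list of thioredoxin and sulfiredoxin recycling, edgeR called 0 of 13 tested genes (0 at an unadjusted p under 0.05, and 0 by DESeq2, which called 3.7% of all genes, and by limma-voom, which called 1.8%), and the median log2 fold change was -0.04. Txnrd1, the cytosolic thioredoxin reductase, stood at 44.3 ± 3.24 CPM in the libraries labelled knockout and 48.3 ± 1.57 CPM in wild type (log2 fold change -0.12, edgeR adjusted p = 0.430). Txnrd3, a reductase best known from testis, stood at 5.47 ± 0.972 CPM in the libraries labelled knockout and 6.69 ± 1.41 CPM in wild type (log2 fold change -0.29, edgeR adjusted p = 0.479).

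Metal supply to the dismutases likewise gave 0 of 9 calls with edgeR, with 2 at an unadjusted p under 0.05, 1 called by DESeq2 and 0 by limma-voom, and a median log2 fold change of 0.11. Ccs, the chaperone that loads copper into Sod1, stood at 23.2 ± 1.44 CPM in the libraries labelled knockout and 21.1 ± 0.864 CPM in wild type (log2 fold change 0.14, edgeR adjusted p = 0.423). The zinc and manganese carrier Slc39a14 stood at 32.6 ± 2.18 CPM in the libraries labelled knockout and 40.0 ± 4.40 CPM in wild type (log2 fold change -0.30, edgeR adjusted p = 0.0850), and passed with DESeq2 (adjusted p = 0.0366) and without W5 (adjusted p = 0.0270). Slc39a8, a carrier of the same family, stood at 2.14 ± 0.400 and 1.47 ± 0.518 CPM in the same order (log2 fold change 0.55, edgeR adjusted p = 0.316).

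Selenoprotein synthesis, on which Gpx1, Gpx3 and Gpx4 depend, had 0 of 10 genes called by edgeR, with a median of 0.02. Of the 10, 0 were at an unadjusted p under 0.05, and DESeq2 and limma-voom called 0. Sephs2, which makes the selenium donor, had a log2 fold change of 0.14 and Eefsec, the elongation factor for selenocysteine, one of -0.11, with edgeR adjusted p of 0.513 and 0.642. Of 13 other tested selenoproteins, 1 fell, and the median was 0.04. It was Dio2, the deiodinase that activates thyroid hormone, at 61.0, 55.6, 40.7, 31.9 and 29.3 CPM in K1 to K5, against 146, 78.6, 209, 90.3 and 71.2 CPM in W1 to W5. The groups did not overlap, as in 3.48% of all tested genes, and the log2 fold change was -1.44 ± 0.28 (SE) with an edgeR adjusted p of 0.0118. Selenon, a selenoprotein of the endoplasmic reticulum, stood at 42.5 ± 5.45 CPM in the libraries labelled knockout and 50.1 ± 3.80 CPM in wild type (log2 fold change -0.24, edgeR adjusted p = 0.214).

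Genes of peroxisome assembly and its oxidases, the surroundings of catalase, gave 0 of 19 calls with edgeR (2 at an unadjusted p under 0.05, and 0 by DESeq2 and limma-voom) and a median of -0.00015. Pex7, an import receptor, stood at 26.9 ± 1.81 CPM in the libraries labelled knockout and 31.7 ± 2.69 CPM in wild type (log2 fold change -0.24, edgeR adjusted p = 0.154). Acox3, an oxidase of branched fatty acids, stood at 27.6 ± 2.16 CPM in the libraries labelled knockout and 32.2 ± 4.29 CPM in wild type (log2 fold change -0.22, edgeR adjusted p = 0.292). Among oxidases that make superoxide or peroxide, 9 of the 15 found passed the filter and edgeR called 0 (1 at an unadjusted p under 0.05, and 0 by DESeq2 and limma-voom), with a median of 0.13. Noxo1, an organiser of NADPH oxidase, stood at 0.712 ± 0.221 CPM in the libraries labelled knockout and 1.04 ± 0.0942 CPM in wild type (log2 fold change -0.55, edgeR adjusted p = 0.319). Ncf1, the organiser used by phagocytes, stood at 1.31 ± 0.385 and 0.903 ± 0.288 CPM in the same order (log2 fold change 0.52, edgeR adjusted p = 0.424).

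Among 19 genes of NRF2 control and its classic targets, 1 fell, 0 rose and the median was 0.03. An unadjusted p under 0.05 was reached by 4 of them, and DESeq2 and limma-voom called 1 each. Hmox1 of this list had a log2 fold change of 0.36 and did not pass (edgeR adjusted p = 0.300). The gene that fell was Gclc, the catalytic subunit of the rate-limiting enzyme of glutathione synthesis, at 45.2, 38.95, 43.0, 41.0 and 42.5 CPM in K1 to K5, against 54.3, 47.2, 52.1, 50.8 and 49.7 CPM in W1 to W5. The groups did not overlap, the log2 fold change was -0.27 ± 0.06 (SE) and the edgeR adjusted p was 0.0415. It passed in 6 of 16 alternative settings, with adjusted p from 0.00721 to 0.127, and leaving out any 1 of K2, K3, K4, K5, W1, W3, W4 or W5 lost the call. The cystine carrier Slc7a11 stood at 5.76 ± 1.17 CPM in the libraries labelled knockout and 12.4 ± 6.17 CPM in wild type (log2 fold change -1.10, edgeR adjusted p = 0.0971), and was called in 3 of 16 alternative settings. Its edgeR adjusted p was 0.00422 without the filter on low counts, 0.0429 with 1 surrogate variable, and 0.000645 without W2, the lowest wild-type library at 3.37 CPM, where the log2 fold change was -1.34. With limma-voom it was -0.91 with an adjusted p of 0.296. The factor itself, Nfe2l2, stood at 28.2 ± 2.39 CPM in the libraries labelled knockout and 25.9 ± 3.09 CPM in wild type (log2 fold change 0.13, edgeR adjusted p = 0.595). In the list of FOXO and mitochondrial regulators, edgeR called 0 of 10 (2 at an unadjusted p under 0.05, and 0 by DESeq2 and limma-voom), with a median of 0.04. Ppargc1b, a coactivator of mitochondrial genes, stood at 57.9 ± 3.99 CPM in the libraries labelled knockout and 48.2 ± 6.84 CPM in wild type (log2 fold change 0.26, edgeR adjusted p = 0.196), and the nuclear receptor gene Esrra at 38.3 ± 2.08 and 34.6 ± 1.57 CPM in the same order (log2 fold change 0.15, edgeR adjusted p = 0.310).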

How the data were processed

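RNA was sequenced from 5 retina libraries labelled Il6 knockout and 5 labelled wild type. The submitters' processing notes name STAR 2.5.3a and featureCounts 1.15.2 for build GRCm38.p5, and DESeq2 1.14, beside bcl2fastq and FastQC; strand and multimapping settings are not given in the sources used here. The authors deposited raw counts per gene with their own log2 fold changes, p-values, and mean normalised signal, which were used only where named. Replicate names follow accession order and pair nothing.

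Counts of 36115 genes (30433373 to 38857374 counts a library) were fitted with edgeR 4.0.16 (R 4.3.3), with TMM scaling (factors 0.954 to 1.04), filterByExpr (minimum count 10, total 15), genotype as the one term and Benjamini-Hochberg adjustment over 18965 genes. The procedure was tested on simulated data. CPM was computed from the TMM-scaled totals, and ± is the SD over libraries unless marked SE. Alternatives used DESeq2 1.42.0, limma-voom 3.58.1, sva 3.50.0, other scaling, no filter and fewer libraries. Exon lengths and copies (BLAST 2.17.0) came from GENCODE M21, matched by gene ID; the spans of Sod1 and Sod2 differ there from the deposited ones, which are printed. The 10 genes and the lists were chosen with earlier results of these data known. From each list the called genes were named and, where fewer than 2 were called, those with the lowest unadjusted p until 2 were named. Prdx2, Ccs, Nfe2l2, Hmox1, Gpx2, Gpx5, Gpx6, the marker genes and the neighbours of Sod3 were added after their values were seen. Depth limits precision most for Sod3, whose lowest count was 62. The lowest count was 257 for Gpx3 and 773 over the 10 genes outside Sod3 and Gpx3.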

Additional observations from a re-analysis of the deposited data

Results flagged for a closer look

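In 2 of 56 gene and group combinations of 5 libraries examined, 1 library stood apart from the others of its group; chance does this in about 1 of 20. Txnrd3 stood at 7.16 CPM in K1, the highest of the libraries labelled knockout, with a gap to the next of 0.769 of the group's range. Prdx4 stood at 15.1 CPM in W2, the highest wild-type library, with a gap of 0.752 of the range. The limit for 5 libraries is 0.71.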

How the results depend on the processing

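Over 16 alternative settings for each of the 10 genes, 142 values kept direction and side of the threshold, 17 changed sign, all of them in genes that were not called, and 1 gained a call. Sod3 kept its call in all 16. The count of the 10 genes called ran from 1 to 2 when each library was left out, the second being Gpx3 without W2. Sod2 stood at 0.0063 on the log2 scale with 1 surrogate variable and at 0.063 without W5 and K5. Leaving out each library gave log2 fold changes of -0.013 to 0.074 for Sod1, -0.052 to 0.040 for Sod2, -0.0054 to 0.14 for Gpx1, -0.084 to 0.051 for Prdx1, -0.033 to 0.061 for Prdx3 and -0.13 to 0.046 for Prdx6, and 0.034 to 0.13 for Cat, 0.14 to 0.25 for Gpx4, 0.59 to 1.12 for Gpx3 and 1.04 to 1.27 for Sod3, which kept their sign.

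Over all tested genes, 704 were called without the filter on low counts, 702 with DESeq2 and 692 with 1 surrogate variable, and 211 to 542 when each library was left out, with 211 without K4 and 240 without K5 the counts that moved by over 1.5 times from 385. Those called higher numbered 298, 314 and 330 under the same 3 settings, 107 without W5 and K5, and 71 to 253 when each library was left out. Those called lower numbered 406, 388 and 362, and 140 to 289. The cause was not tested. The Sod3 share of the dismutases fell to 0.762% in the libraries labelled knockout and 0.346% in wild type with the principal transcript's length, which is longer relative to the exon total for Sod3 than for Sod1 or Sod2. The Il6 difference ran from 0.12 to 0.16 when each library was left out.

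No paired analysis was possible because the labels carry no replicate numbers. Litter, sex and a batch are not named in the labels, and K5 has its own second index sequence; without K5 the log2 fold change of Sod3 was 1.12 with an edgeR adjusted p of 0.015, and that of Gpx3 was 0.65 with one of 0.513. The 5 libraries a group limit what can be detected.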

Other observations

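Gpx2, an intestinal glutathione peroxidase too low for the test, had 16, 0, 0, 2 and 1 counts in K1 to K5, against 3, 0, 3, 0 and 0 counts in W1 to W5. K1 held most of its reads.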
